A study of Mus musculus with 4 samples.

Results

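The genes described here are p53, which mouse cells encode in *Trp53*, and 9 genes that p53 is known to bind and activate directly: *Mdm2*, *Cdkn1a*, *Ccng1*, *Sesn1*, *Trp53inp1*, *Zmat3*, *Bax*, *Bbc3* and *Pmaip1*. They were chosen by symbol, because PATZ1 has been linked to p53 activity in other cells, and they are 10 of the 23420 genes in the count files. Earlier results of these data were known when they were chosen, so the choice was not blind. RNA-seq compared cervical motor neurons (MNs) made from wild type (WT) E14 mESCs with MNs made from *Patz1* KO cells (*Patz1* -/-), with 2 libraries for each genotype. E14 (ES-E14TG2a) is a mouse embryonic stem cell line, and the KO was made in it with CRISPR/Cas9. Cells of both genotypes were grown as embryoid bodies for 2 days and were then patterned with 1 µM all-trans-retinoic acid and 0.5 µM SAG, an agonist of Smoothened. Replicates are separate differentiations according to the study's methods, and p-values therefore measure the spread between these differentiations. Several KO lines were made, and the labels do not say which line gave each library. Sample titles speak of ESCs, but the source and cell type fields speak of MNs. The MN markers *Mnx1* and *Chat* and the pan-neuronal marker *Tubb3* were present in every library. *Pou5f1*, a defining gene of ESCs, had 7 counts in each WT library and no more than 4 in a *Patz1* KO library. Among other pluripotency markers, *Tdgf1* was also near 0 (1 and 3 counts in WT, 2 and 4 in *Patz1* KO). Counts were higher for *Nanog* (57 and 75 in WT, 46 and 59 in *Patz1* KO), *Klf4* (37 and 61, 15 and 22) and *Zfp42* (18 and 26, 57 and 25).

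p53 is a transcription factor that is held at a low level because MDM2 marks it for breakdown, and it accumulates after DNA damage, oncogene signalling or other stress. It binds DNA as a tetramer and activates genes that halt the cell cycle, repair DNA, adjust metabolism or trigger death through mitochondria, as well as *Mdm2*, which closes a negative feedback loop. Much of p53 activity is set by the stability and modification of the protein, which RNA-seq does not measure. In the developing nervous system p53 is known for removing damaged progenitors and for a part in the death of neurons.

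The p53 element is a pair of motif units of 10 bases each, and it was searched in the RefSeq promoter windows of GRCm38.p6, which run from 250 bases before a start to 50 bases after it. Both strands were read, the C and G at the core of each unit had to be intact, up to 3 mismatches to the consensus were allowed over the 20 bases, and up to 13 bases could lie between the units. Windows were used for 7 of the 10 genes (11 windows). *Trp53inp1* and *Zmat3* had none, and none was used for *Pmaip1*. A match was found in 6 of these 7 genes and in 17.4% of all 27025 genes with a window. A gene counted if any of its windows matched, so genes with more windows had more chances. By window, 7 of the 11 matched, beside 15.6% of all 32851 windows. With at most 2 mismatches it was found in 4 of 7 and in 4.71% of all genes, and with no bases between the units in 5 of 7 and in 1.63%. *Mdm2* had no match in its only window, which lies at its upstream start. Sequence outside the windows, introns included, was not searched, so elements elsewhere in *Mdm2* would have been missed. A match is a description of the letters and not a measured binding site, and the genes were picked as known p53 targets.

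The best ungapped match of 5 genes is shown, 5′ to 3′ on the strand of the gene, with 20 bases on each side, because these letters are where p53 could meet the promoters of the genes measured here. Capitals mark the 20 bases of the element. The element of *Cdkn1a* lies at chr17:29090928-29090947 (1 mismatch, 51 bases before the upstream start), that of *Ccng1* at chr11:40755462-40755481 (1 mismatch, 195 bases before the start), that of *Bbc3* at chr7:16309486-16309505 (3 mismatches, 97 bases before the upstream start), that of *Trp53* itself at chr11:69580284-69580303 (3 mismatches, 75 bases before the start) and that of *Sesn1* at chr10:41887266-41887285 (3 mismatches, 173 bases before the downstream start).
Cdkn1a: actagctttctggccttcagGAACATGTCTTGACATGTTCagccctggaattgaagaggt
Ccng1: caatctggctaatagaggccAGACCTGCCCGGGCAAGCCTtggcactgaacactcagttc
Bbc3: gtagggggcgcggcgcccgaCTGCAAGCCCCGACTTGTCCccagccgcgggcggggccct
Trp53: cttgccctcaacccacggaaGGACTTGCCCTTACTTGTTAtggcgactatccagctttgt
Sesn1: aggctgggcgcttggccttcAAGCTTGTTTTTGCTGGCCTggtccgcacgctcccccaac

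The promoter of *Bax* held its best match with 1 base between the units, at chr7:45467079-45467099 (2 mismatches, 201 bases before the start). It is shown because *Bax* has no ungapped match, and its lower-case base inside the capitals is the spacer.
Bax: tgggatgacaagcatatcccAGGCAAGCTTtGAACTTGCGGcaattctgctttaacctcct

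PATZ1 binds G-rich DNA, and GGGAGGG, the core of the motif of the related zinc finger protein MAZ, was counted in the same windows on either strand. It was present in 4 of the 7 genes (*Trp53*, *Mdm2*, *Cdkn1a* and *Bbc3*) and in 23.8% of all genes with a window. By window it was present in 5 of the 11, beside 22% of all windows. The upstream *Cdkn1a* window and the *Bbc3* window with the elements shown above had no GGGAGGG. PATZ1 binding at these genes was not analysed here.

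The deposited values are raw counts of reads per gene, and levels are given as CPM, that is, counts relative to the library size after TMM scaling. WT libraries held 14769104 and 15728158 counts in all, *Patz1* KO libraries 23881522 and 17402342, of which the abundant small or ribosomal transcripts *Rmrp*, *Rn45s* and *Rpph1* made up 6.33% to 6.55% (WT) and 6.81% to 9.65% (*Patz1* KO). Genotypes were tested by the quasi-likelihood method of edgeR, with p-values adjusted by the Benjamini-Hochberg method over the 14269 genes that passed a filter on low counts, and a gene was called at an adjusted p below 0.05. Calls were many, with 3444 genes (24.1%) higher and 3392 (23.8%) lower in *Patz1* KO, and the median of all log2 fold changes was -0.0014. Without WT replicate 2 the calls over all genes were 4521, of which 2175 were lower. *Patz1* mRNA was at 91.5 and 94.3 CPM in WT and at 47.6 and 42.6 CPM in *Patz1* KO, which is a change of -1.04 ± 0.0951 on the log2 scale (SE, adjusted p = 1.1e-07, edgeR). The transcript of the targeted gene was thus reduced and still counted in both libraries labelled *Patz1* KO.

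All 10 genes passed the filter, and all 10 were called, beside 47.9% of all genes tested. *Trp53* and *Mdm2* fell in *Patz1* KO MNs, whereas the other 8, which act in cell cycle arrest, metabolism and cell death, rose by 1.19-fold (*Bax*) to 2.27-fold (*Pmaip1*). The 8 of 10 that rose stand beside 24.1% of all genes tested, and the 2 of 10 that fell beside 23.8%. For the same 8 genes both *Patz1* KO libraries lay above both WT libraries, which was so for 37% of all genes tested. The median log2 fold change of the 10 was 0.39, and their summed level was 864 and 887 CPM in WT and 1061 and 1189 CPM in *Patz1* KO. Most changes were modest in size: when a fold of at least 1.5 was required by the test itself, 1 of the 10 was called (*Bbc3*, higher), beside 13% of all genes called in either direction by that rule and 6.13% called higher. Fewer calls were made without a WT library, among the 10 as among all genes. Of the 10, 5 were called without WT replicate 1 (33.6% of all genes), 6 without WT replicate 2 (30.9%), 10 without *Patz1* KO replicate 1 (49%) and 8 without *Patz1* KO replicate 2 (53.7%). No log2 fold change of the 10 reversed in any of the 14 alternatives. In cultures like these, fewer cells of a type that expresses a gene and less RNA per cell cannot be told apart.

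**Figure D1:**
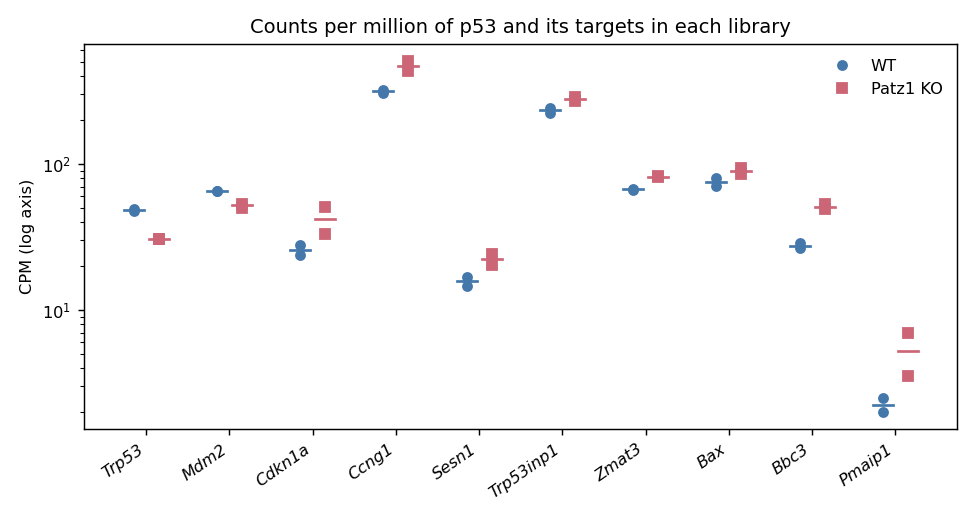
Level of *Trp53* and its 9 targets in CPM (log axis) for each of the 4 libraries, with WT as circles, *Patz1* KO as squares and a short line at the mean of each group. *Trp53* and *Mdm2* are lower in both *Patz1* KO libraries and the other 8 genes are higher in both, and the wide gaps between the *Patz1* KO libraries are those of *Cdkn1a* and *Pmaip1*.

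*Trp53* (chr11:69580359-69591873, plus strand, GRCm38) was at 47.5 and 48.9 CPM in WT and at 30.6 and 30.9 CPM in *Patz1* KO. The replicates lay close together in both genotypes, and the groups were far apart relative to that spread. The log2 fold change was -0.65 ± 0.0973 (SE, adjusted p = 2.96e-05, edgeR), a level of 0.637 of WT with a 95% interval from 0.553 to 0.735. Leaving out each library in turn gave values from -0.67 to -0.62, all called. Of the stretches of 50 bases in its transcripts, 3.95% also occur in another gene, mainly in the pseudogene *Trp53-ps*, so a small part of its reads could be shared. *Wrap53*, named here after its values were seen because it starts at 69580255 on the minus strand, head to head with *Trp53*, was at 17.9 and 16.3 CPM in WT and at 15.3 and 14.2 CPM in *Patz1* KO (log2 fold change -0.21 ± 0.132, adjusted p = 0.205, edgeR), and was not called.

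*Mdm2* (chr10:117688875-117710758, minus strand), the ubiquitin ligase that limits p53 and is itself activated by it, fell together with *Trp53* and not with the other targets. Its level was 65.3 and 65.2 CPM in WT and 50.4 and 53.7 CPM in *Patz1* KO, with no overlap. The log2 fold change was -0.33 ± 0.0934 (adjusted p = 0.00774, edgeR), a level of 0.797 of WT (95% interval 0.696 to 0.913). The estimate was -0.33 without WT replicate 1 and -0.32 without WT replicate 2, but it was then not called (adjusted p = 0.0768 and 0.0855). Its close relative *Mdm4*, which restrains p53 as a partner of MDM2, was at 46.7 and 46.2 CPM in WT and at 39.1 and 45.2 CPM in *Patz1* KO without a call, with a log2 fold change of -0.14 (95% interval -0.36 to 0.07, adjusted p = 0.258). It was called lower without *Patz1* KO replicate 2 (-0.24, adjusted p = 0.0362, edgeR).

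Set against *Trp53* in the same library, which needs no scaling between libraries, the *Mdm2* count was 1.37 and 1.33 times that of *Trp53* in WT and 1.65 and 1.74 times in *Patz1* KO. For *Cdkn1a* the corresponding ratios were 0.585 and 0.49 in WT and 1.09 and 1.65 in *Patz1* KO. *Ccng1* had 4.73 and 4.92 times the count of *Mdm2* in WT and 8.66 and 9.4 times in *Patz1* KO. In each of these ratios both *Patz1* KO libraries were above both WT libraries, without overlap. The count of *Mdm2* relative to *Mdm4* went the other way, at 1.4 and 1.41 in WT and 1.29 and 1.19 in *Patz1* KO.

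*Cdkn1a* (chr17:29090976-29100727, plus strand) encodes p21, the inhibitor of cyclin-dependent kinases through which p53 halts the cell cycle. It was at 27.8 and 24.0 CPM in WT and at 33.4 and 50.9 CPM in *Patz1* KO. The lower *Patz1* KO library stood only slightly above WT, and the *Patz1* KO libraries differed by 52.2% of the lower one. The log2 fold change was 0.69 ± 0.152 (adjusted p = 0.00107, edgeR), or 1.62-fold with a 95% interval from 1.30 to 2.02. Without *Patz1* KO replicate 2 it was 0.38 (adjusted p = 0.00146) and without *Patz1* KO replicate 1 it was 0.98, so the size of the change depended on the library while the call did not. The annotated exons of *Cdkn1a* overlap those of AC167363.2 on the other strand, and 8.49% of its stretches of 50 bases also occur in other genes.

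*Ccng1* (chr11:40748552-40755311, minus strand), which encodes cyclin G1 and is a classical p53 target, was at 309 and 321 CPM in WT and at 436 and 504 CPM in *Patz1* KO. On the log2 scale it rose by 0.58 ± 0.1 (adjusted p = 0.000132, edgeR), or 1.49-fold (95% interval 1.29 to 1.73), and it was called without any single library, with values from 0.48 to 0.69. *Sesn1* (chr10:41809935-41908424, plus strand), a sestrin that restrains mTORC1 and oxidative stress, was at 14.6 and 16.8 CPM in WT and at 20.2 and 24.2 CPM in *Patz1* KO. It rose by 1.41-fold (95% interval 1.16 to 1.71), with a log2 fold change of 0.49 ± 0.134 (adjusted p = 0.00584, edgeR). Without WT replicate 1 the *Sesn1* estimate was 0.40 and was not called (adjusted p = 0.0832). No stretch of 50 bases in either gene occurs in another gene.

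*Trp53inp1* and *Zmat3* rose by small amounts, and their calls needed both WT libraries. *Trp53inp1* (chr4:11156431-11174379, plus strand) encodes a nuclear protein that helps p53 modification and autophagy, and it was at 223 and 243 CPM in WT and at 271 and 288 CPM in *Patz1* KO. This was a log2 fold change of 0.26 ± 0.0908 (adjusted p = 0.0232, edgeR), or 1.20-fold (95% interval 1.05 to 1.37). It was not called without WT replicate 1 (0.20, adjusted p = 0.343), without WT replicate 2 (0.34, adjusted p = 0.0971) or with library size alone (0.23, adjusted p = 0.0603). *Zmat3* (chr3:32334792-32366014, minus strand) encodes an RNA-binding zinc finger protein that acts on splicing and mRNA stability downstream of p53. Its level was 66.2 and 68.0 CPM in WT and 81.3 and 82.6 CPM in *Patz1* KO, so the replicates were tight and the groups separate. The log2 fold change of *Zmat3* was 0.29 ± 0.0895 (adjusted p = 0.0131, edgeR), or 1.22-fold (95% interval 1.07 to 1.39), and its call was lost without WT replicate 1 (0.27, adjusted p = 0.158) and without WT replicate 2 (0.31, adjusted p = 0.0991).

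Mitochondrial death was represented by the effector *Bax* and the BH3-only genes *Bbc3* and *Pmaip1*, whose products PUMA and NOXA free or activate BAX. *Bbc3* (chr7:16308393-16318205, plus strand) was at 28.7 and 26.5 CPM in WT and at 49.0 and 53.2 CPM in *Patz1* KO. Both *Patz1* KO libraries were above both WT libraries by 1.70-fold to 2.01-fold for each pair of libraries. The log2 fold change was 0.89 ± 0.102 (adjusted p = 1.65e-06, edgeR), or 1.85-fold (95% interval 1.59 to 2.14). *Bbc3* was called in all 14 alternatives, including the test against a fold of at least 1.5 (adjusted p = 0.00977), and leaving out single libraries gave 0.83 to 0.95.

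*Pmaip1* was the member with the fewest reads, with 37 and 32 counts for WT, 86 and 116 for *Patz1* KO, or 2.48 and 2.01 CPM against 3.55 and 6.92 CPM. Its log2 fold change had the largest value and the widest interval of the 10 (1.18 ± 0.314, adjusted p = 0.00471, edgeR), with a fold of 2.27 and a 95% interval from 1.44 to 3.59. The *Patz1* KO libraries differed by 94.95% of the lower one, and without *Patz1* KO replicate 2 the value was 0.67 and was not called (adjusted p = 0.0517).

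*Bax* (chr7:45461697-45466898, minus strand) was at 79.9 and 71.3 CPM in WT and at 85.2 and 94.1 CPM in *Patz1* KO. The groups did not overlap, but the gap between them was smaller than the gap between the WT libraries. Its change of 0.25 ± 0.0953 on the log2 scale (adjusted p = 0.0418, edgeR), or 1.19-fold (95% interval 1.03 to 1.36), was the weakest call of the 10. The *Bax* call was lost with DESeq2 (adjusted p = 0.0945), with library size alone (adjusted p = 0.1), after thinning to the smallest library (adjusted p = 0.0626), without WT replicate 1 (0.33, adjusted p = 0.0744), without WT replicate 2 (0.17, adjusted p = 0.412) and without *Patz1* KO replicate 2 (0.18, adjusted p = 0.0821). An annotated gene on the same strand, *Gm45808*, shares 8.51% of its stretches of 50 bases.

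**Figure D2:**
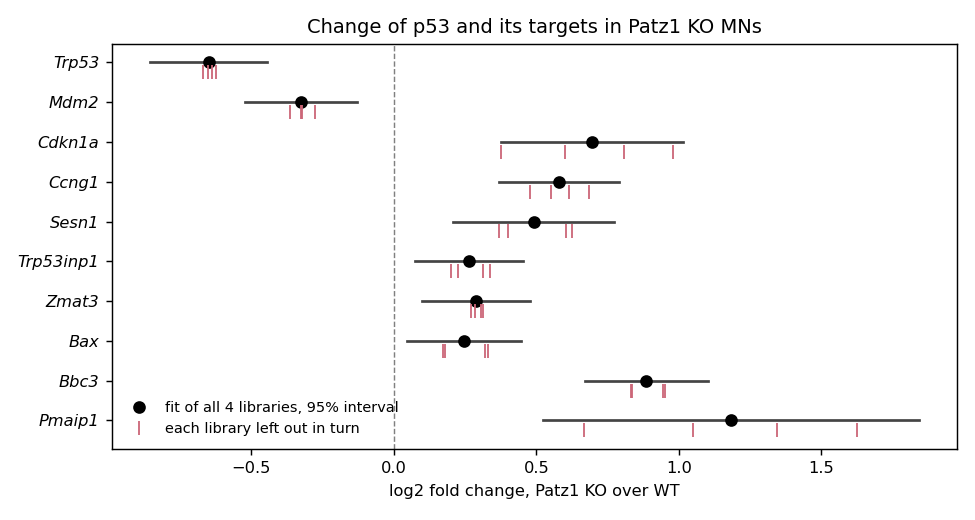
Log2 fold change, *Patz1* KO over WT, of each of the 10 genes. Points are the edgeR fit of all 4 libraries with bars for the 95% interval, and red ticks are the fits with each library left out in turn. *Trp53* and *Mdm2* lie below 0 and the other genes above it, and the ticks of *Cdkn1a* (0.38 to 0.98) and *Pmaip1* (0.67 to 1.63) spread most.

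The 10 genes differed between the *Patz1* KO replicates in the same direction but by unequal amounts. The gap was 1.03% of the lower library for *Trp53*, 1.68% for *Zmat3*, 52.2% for *Cdkn1a* and 94.95% for *Pmaip1*. The other genes lay between 6.24% (*Trp53inp1*) and 19.75% (*Sesn1*). All 10 were at a higher CPM in *Patz1* KO replicate 2 than in replicate 1, compared with 47.5% of all genes tested, whereas in WT 5 of 10 were higher in replicate 2 and 50.1% of all genes. *Patz1* KO replicate 2 was also the library with the highest share of *Rn45s*, *Rpph1* and *Rmrp* (9.65%). Without *Patz1* KO replicate 2 the median log2 fold change of the 10 was 0.325, and without *Patz1* KO replicate 1 it was 0.473. What made these 2 libraries differ was not tested.

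To compare levels between genes, CPM was divided by the exon length of each gene in kilobases. On this scale *Ccng1* was the most abundant of the 10 in WT (89.6 ± 2.42 CPM per kilobase, SD, n = 2), followed by *Bax* (48.0 ± 3.87) and *Trp53inp1* (36.0 ± 2.28), and each of these stood apart from its neighbour by more than the spread. *Bbc3* (13.01 ± 0.73) and *Mdm2* (12.8 ± 0.0137) did not differ beyond their spread, and *Trp53* (11.9 ± 0.234), *Cdkn1a* (7.28 ± 0.763), *Zmat3* (5.87 ± 0.111), *Sesn1* (3.95 ± 0.383) and *Pmaip1* (0.823 ± 0.122) followed. In *Patz1* KO the highest levels were those of *Ccng1* (134 ± 13.8), *Bax* (56.9 ± 3.99), *Trp53inp1* (43.2 ± 1.85) and *Bbc3* (24.1 ± 1.42). *Cdkn1a* (11.9 ± 3.47) moved from place 7 to place 5, past *Mdm2* (10.2 ± 0.458) and *Trp53* (7.60 ± 0.0552), but its spread covers the level of *Mdm2*. *Zmat3* (7.17 ± 0.0846), *Sesn1* (5.58 ± 0.709) and *Pmaip1* (1.92 ± 0.872) kept places 8 to 10. The order depended in part on the length used: per kilobase of the longest transcript, *Mdm2* (20.7) stood above *Bbc3* (15.2) in WT, and *Zmat3* (10.5) above *Trp53* (9.38) in *Patz1* KO.

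**Figure D3:**
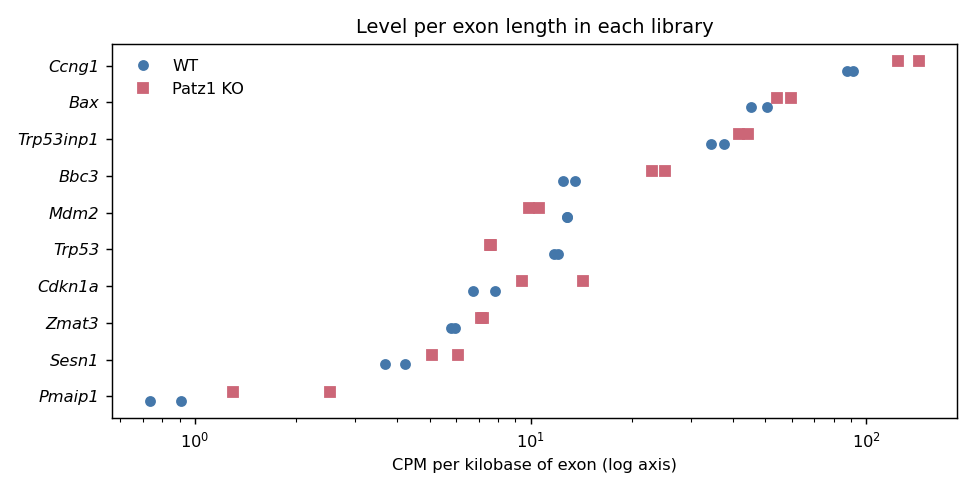
Level of each gene in CPM per kilobase of exon (log axis) in the 4 libraries, with WT as circles and *Patz1* KO as squares, ordered by the WT level. Levels run from below 1 for *Pmaip1* in WT to over 100 for *Ccng1* in *Patz1* KO.

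The wider pathway was read from lists of other p53 genes that do not include the 10. Among targets in cell cycle arrest and feedback, 10 of 12 genes were tested, 5 (50%) were higher and 4 (40%) lower, beside 24.1% and 23.8% of all genes, with a median log2 fold change of 0.13 (-0.173 without WT replicate 1). *Phlda3*, a repressor of AKT, rose from 20.5 and 19.9 CPM to 46.3 and 51.1 CPM (1.27 ± 0.107, adjusted p = 4.07e-08, edgeR), and *Btg2*, an antiproliferative gene expressed as progenitors begin to make neurons, rose from 82.3 and 89.4 CPM to 172 and 185 CPM (1.05 ± 0.0893, adjusted p = 4.35e-08, edgeR). *Plk3*, a stress-responsive kinase, fell from 70.7 and 63.7 CPM to 39.6 and 39.8 CPM (-0.76 ± 0.0972, adjusted p = 5.25e-06, edgeR). These 3 genes and those named from each of the other pathway lists had the smallest p of their list. *E2f7* and *Gtse1*, which are also expressed with S and G2 phase, fell as well (-1.19 and -0.57, adjusted p = 1.6e-05 and 0.00016, edgeR), and *Sesn2* rose (0.76, adjusted p = 6.58e-06, edgeR). The remaining lower gene was *Ppm1d* (-0.29, adjusted p = 0.0256, edgeR), which was not called by DESeq2 (adjusted p = 0.126). *E2f7*, *Gtse1*, *Sesn2* and *Ppm1d* were chosen after their values were seen.

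Among 14 tested death targets of 15, 4 (28.6%) were higher, 1 (7.14%) was lower and 9 were not called, and the share of higher genes was near the 24.1% of all genes (23.8% of all genes were lower). The median was -0.004, beside -0.0014 for all genes. The count of lower genes was 2 without WT replicate 2 and without either *Patz1* KO library. *Bid*, the BH3-only gene that links death receptors to mitochondria, rose from 10.8 and 11.3 CPM to 23.4 and 24.9 CPM (1.12 ± 0.13, adjusted p = 1.59e-06, edgeR), and *Aen*, an apoptosis-associated nuclease, from 105 and 93.8 CPM to 126 and 143 CPM (0.43 ± 0.0939, adjusted p = 0.00101, edgeR). *Siva1* fell from 45.9 and 44.5 CPM to 28.0 and 31.7 CPM (-0.60 ± 0.103, adjusted p = 0.000112, edgeR). Among other long-known death targets, *Fas* had few reads, with 5 and 9 counts for WT against 33 and 21 for *Patz1* KO, and was called higher (1.52 ± 0.46, adjusted p = 0.0114, edgeR), though not by DESeq2 (adjusted p = 0.118). *Perp* (-0.58, adjusted p = 0.104, edgeR) and *Apaf1* (0.09, adjusted p = 0.468, edgeR) were not called, and *Fas*, *Perp* and *Apaf1* were chosen after their values were seen.

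Targets in DNA repair and metabolism had the highest median of the lists of p53 targets, at 0.54, with 12 of 18 (66.7%) called higher, 2 (11.1%) lower and 4 not called, beside 24.1% higher and 23.8% lower over all genes. Without WT replicate 1, WT replicate 2 or *Patz1* KO replicate 2, 1 gene of the list was lower. Their summed level was 600 and 597 CPM in WT and 842 and 970 CPM in *Patz1* KO, and much of this rise was that of *Ddit4* alone. *Ddit4*, an inhibitor of mTORC1 that also responds to low oxygen, rose from 80.4 and 74.4 CPM to 230 and 360 CPM (1.93 ± 0.146, adjusted p = 1.03e-08, edgeR), and again *Patz1* KO replicate 2 was the higher library. *Xpc*, which recognises damage in nucleotide excision repair, rose from 36.2 and 36.7 CPM to 74.1 and 67.0 CPM (0.96 ± 0.0981, adjusted p = 4.17e-07, edgeR), and *Cpt1c*, a neuronal relative of the carnitine palmitoyltransferases, from 35.7 and 32.1 CPM to 55.7 CPM in both (0.72 ± 0.0992, adjusted p = 1.24e-05, edgeR). Also higher, and chosen after their values were seen, were *Rrm2b* (0.59), *Fdxr* (0.62), *Gls2* (1.08) and *Tigar*, which the files name 9630033F20Rik (0.67). *Gls2* had few reads (18 and 22 counts in WT, 73 and 41 in *Patz1* KO) and was not called by DESeq2 (adjusted p = 0.0857). The 2 lower genes, also named after their values were seen, were *Rev3l* (-0.51, adjusted p = 0.000105, edgeR) and *Aldh4a1* (-0.38, adjusted p = 0.0274, edgeR).

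**Figure D4:**
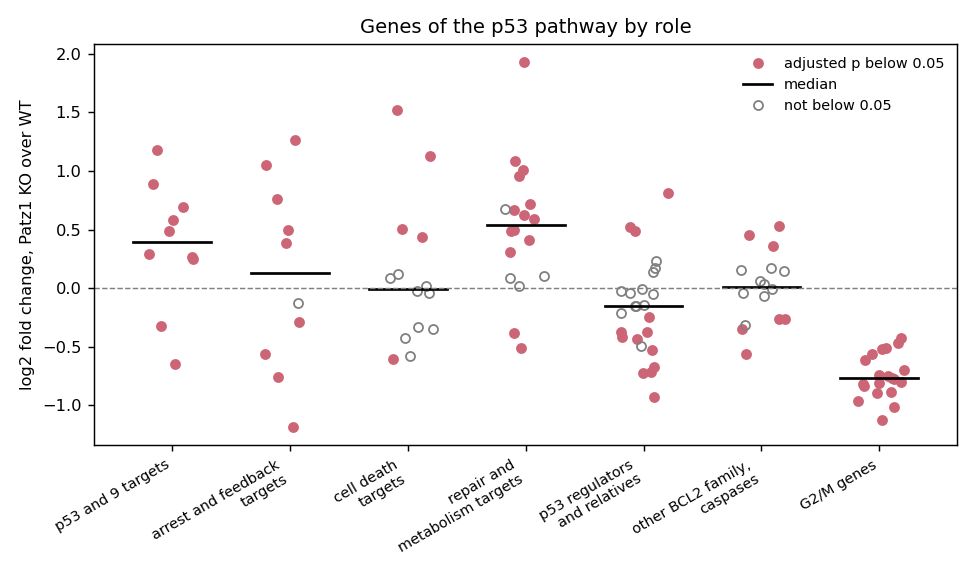
Log2 fold change, *Patz1* KO over WT, of each tested gene of the p53 pathway, grouped by role, with filled points at an adjusted p below 0.05, open points otherwise, and a line at the median of each group. The repair and metabolism targets have a median of 0.54, and all 20 G2/M genes lie below 0.

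Of 25 tested genes that regulate p53 or are related to it, 3 (12%) were higher, 10 (40%) lower and 12 not called, beside 24.1% and 23.8% of all genes, with a median of -0.15 (-0.242 without *Patz1* KO replicate 2). The count of higher genes was 1 without WT replicate 2 and 5 without *Patz1* KO replicate 1. *Chek1*, the checkpoint kinase of replicating cells, fell from 40.7 and 41.8 CPM to 22.1 and 21.1 CPM (-0.93 ± 0.105, adjusted p = 1.22e-06, edgeR), and *Atm*, the kinase activated by double strand breaks, from 117 and 135 CPM to 83.0 and 69.3 CPM (-0.72 ± 0.102, adjusted p = 1.59e-05, edgeR). *Trim24*, a ubiquitin ligase for p53, rose from 105 and 114 CPM to 200 and 185 CPM (0.82 ± 0.0888, adjusted p = 8.19e-07, edgeR). *Cdkn2a*, whose ARF product inhibits MDM2 and whose other product is p16, was at 12.02 and 10.1 CPM in WT and at 13.4 and 18.6 CPM in *Patz1* KO (0.52 ± 0.168, adjusted p = 0.0159, edgeR), and the gene counts do not separate its products. It was not called by DESeq2 (adjusted p = 0.0557), without WT replicate 2 (adjusted p = 0.13) or without *Patz1* KO replicate 2 (adjusted p = 0.101). The relatives *Trp63* and *Trp73* were too low to test. For *Trp63*, WT gave 2 and 0 counts, *Patz1* KO 0 and 2. For *Trp73*, WT gave 8 and 6 counts, *Patz1* KO 2 and 1.

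In the rest of the BCL2 family and the caspase pathway, 3 of 16 genes (18.8%) were higher and 4 (25%) lower, shares near the 24.1% and 23.8% of all genes, with a median of 0.01. Without WT replicate 1 the counts were 1 higher and 2 lower, and without WT replicate 2, 1 gene was lower. *Bcl2*, which opposes BAX, fell from 19.3 and 21.5 CPM to 13.9 and 13.7 CPM (-0.56 ± 0.129, adjusted p = 0.00159, edgeR). The *Bbc3* count was 1.49 and 1.24 times the *Bcl2* count in WT and 3.52 and 3.9 times in *Patz1* KO, and the *Bax* count 4.15 and 3.32 times in WT and 6.13 and 6.89 times in *Patz1* KO. These ratios depend on the fall of *Bcl2*, and ratios to other genes of the list were not computed. *Mcl1* was also lower (-0.35, adjusted p = 0.00273, edgeR). *Bcl2l1* (-0.04, adjusted p = 0.774, edgeR) and *Bcl2l2* (0.16, adjusted p = 0.211, edgeR) were not called. *Mcl1*, *Bcl2l1* and *Bcl2l2* were chosen after their values were seen. *Casp9*, the initiator caspase of the mitochondrial pathway, rose from 30.3 and 28.6 CPM to 43.4 and 41.4 CPM (0.53 ± 0.101, adjusted p = 0.000345, edgeR).

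G2/M genes, which p21 is known to repress through the DREAM complex and which also mark dividing cells, fell in all 20 of 20 cases, with log2 fold changes from -1.13 to -0.43 and a median of -0.77. All 20 were called lower, beside 23.8% of all genes tested. Their summed level was 2523 and 2677 CPM in WT and 1451 and 1445 CPM in *Patz1* KO. *Mki67* fell from 348 and 382 CPM to 172 and 162 CPM (-1.13 ± 0.0925, adjusted p = 2.98e-08, edgeR), *Ube2c* from 101 and 109 CPM to 52.5 and 50.7 CPM (-1.02 ± 0.0918, adjusted p = 9.2e-08, edgeR) and *Top2a* from 627 and 679 CPM to 334 and 336 CPM (-0.96 ± 0.0996, adjusted p = 4.48e-07, edgeR).

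Markers of cell types also differed between the genotypes, and their counts stand beside 24.1% of all genes higher and 23.8% lower. Of 8 MN markers, 7 were higher and 0 lower in *Patz1* KO (summed level 600 to 644 CPM in WT, 940 to 1032 CPM in *Patz1* KO), of 5 pan-neuronal markers 2 were higher and 1 lower (2865 to 3100 against 3766 to 4176 CPM), and of 5 neural progenitor markers 1 was higher and 2 lower (781 to 804 against 552 to 574 CPM). With so few genes the counts of the pan-neuronal and progenitor lists were near the shares of all genes. Their sums rest mostly on 1 gene each. *Tubb3* was at 1777 and 1570 CPM in WT and at 2638 and 2203 CPM in *Patz1* KO. *Nes*, named after its values were seen, was at 510 and 475 CPM in WT and at 319 and 278 CPM in *Patz1* KO. All 6 mesenchyme markers were lower (184 to 206 against 30.5 to 36.2 CPM), as were 6 of 8 tested markers of primitive endoderm (43.5 to 51.7 against 7.63 to 7.84 CPM) and 2 of 4 tested markers of pluripotency (9.40 to 12.3 against 6.02 to 7.99 CPM). These shifts accompany the changes of *Trp53* and its targets, and their part in those changes was not tested.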

How the data were processed

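The authors deposited raw counts of reads per gene symbol, 1 file for each of 4 libraries, without normalization. Reads came from stranded total RNA libraries after removal of ribosomal RNA. The study's methods name mm10 and Bowtie 2, and the submitters' processing notes name TopHat2 2.1.1, Bowtie2 2.3.1, featureCounts 1.6.2 and DESeq2. The annotation and strand setting of the counting are not given in the sources used here, so values of overlapping genes are uncertain. Reads carry no molecular identifiers.

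Counts were scaled with TMM, filtered with filterByExpr (minimum count 10), which left 14269 genes, and tested with edgeR 4.0.16 (limma 3.58.1, R 4.3.3) by the quasi-likelihood test with Benjamini-Hochberg adjustment. The standard error was derived from the F statistic. The study's own test, DESeq2's Wald test (DESeq2 1.42.0), was run as an alternative. With 2 libraries per group an exact permutation test cannot pass 0.05, and none was run. Replicates differed by more than sampling noise (chi-square per gene 8.44 in WT and 18.7 in *Patz1* KO). The steps were tested on simulated counts. Exon lengths and positions came from the GRCm38 annotation and promoter sequences from RefSeq. Lists held 158 symbols, all matched, 4 of them by an older name. Genes named were *Patz1*, the 10 genes, *Mdm4*, *Cdkn2a*, *Trp63*, *Trp73* and, from each of the 6 pathway lists, the 3 tested genes of smallest p, beside those said to have been chosen after their values were seen. 1 gene that this rule names is not reported here. The members and lists were chosen with earlier results of these data known.

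Alternatives changed the scaling (size factors of DESeq2, no TMM factor, or TMM with the top 20 genes removed), the filter (none, or 10 counts in each library), the test (DESeq2, robust estimation, a minimum fold of 1.5), the design (a block for replicate number), the depth (counts thinned to the smallest library) and the samples (each library left out, where the lone library of a group is assumed to vary like the others).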

Additional observations from a re-analysis of the deposited data

How the results depend on the processing

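Of 140 results for the 10 genes (14 alternatives each), 116 kept their call and direction, 24 kept their direction and lost the call, and 0 reversed. Of those lost, 9 were under a minimum fold of 1.5, where fold changes are those of the main test: *Trp53* (-0.65, adjusted p = 0.44), *Cdkn1a* (0.69, 0.415), *Mdm2* (-0.33, 1), *Ccng1* (0.58, 0.904), *Trp53inp1* (0.26, 1), *Bax* (0.25, 1), *Pmaip1* (1.18, 0.0758), *Zmat3* (0.29, 1) and *Sesn1* (0.49, 1). Others were *Trp53inp1* (0.23) and *Bax* (0.21) with library size alone, and *Bax* with DESeq2 (0.26) and after thinning (0.24). With 1 library left out, values ranged from -0.37 to -0.28 for *Mdm2*, 0.20 to 0.34 for *Trp53inp1*, 0.17 to 0.33 for *Bax*, 0.67 to 1.63 for *Pmaip1*, 0.27 to 0.31 for *Zmat3* and 0.37 to 0.63 for *Sesn1*.

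The count of the 10 genes called was 1 under the minimum fold (1 of them higher) and 5 to 10 (4 to 8 higher) with 1 library left out, and their median ranged from 0.325 to 0.473. Over all genes the minimum fold left 1854 calls (874 higher, 980 lower). Under it the lists held, as higher and lower, 2 and 1 arrest targets, 1 and 0 death targets, 2 and 0 repair and metabolism targets, 1 and 1 regulators, 0 and 0 other BCL2 family genes, and 8 lower G2/M genes. Death targets called lower were 2 with library size alone, 2 after thinning and 3 with the replicate block. Over all genes 3501, 3264 and 3651 were lower in these settings, beside 3392 in the main test. DESeq2 gave 1 lower repair and metabolism target and 2 lower BCL2 family genes, and it also called fewer genes lower over all genes (2446 of 15805 tested). The median log2 fold change of the arrest list changed sign, to -0.189 without a filter, -0.2 with DESeq2 and -0.173 without WT replicate 1. The median level per exon length was 12.4 CPM per kilobase, and 15.0 with the longest transcript.

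With 1 library left out, calls over all genes ranged from 4521 to 7816 (2175 to 3831 lower), lower death targets from 1 to 2, lower repair and metabolism targets from 1 to 2, higher regulators from 1 to 5, and other BCL2 family genes from 1 to 4 higher and 1 to 5 lower. The labels number the replicates 1 and 2 in each group, and deviations of libraries with the same number correlated by 0.0413. With 2 libraries per group this cannot show whether libraries of the same number were made together. With the replicate block all 10 genes were called. Depth limits *Pmaip1* most, with 32 to 116 counts.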
